A study of Mus musculus with 4 samples.

Results

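The genes described are 10 members of the gp130, Stat3 and Socs signalling route, taken by symbol from the deposited series-wide sheet of gene expression, which held 23439 usable genes. They are the receptor chains Il6st, Lifr and Osmr, the kinases Jak1 and Jak2, the transcription factor Stat3, the Socs family genes Cish, Socs2 and Socs3, and the kinase gene Pim1. All 10 were found in the sheet, and all 10 passed the filter on low values, with no value under 1.83 FPKM in any library. The sequenced RNA came from hearts of mice aged 12 weeks, 1 heart a library. The 2 Tbx20_OE hearts had the genotype alphaMHCMerCreMer+/-;CAGCATTbx20, and the 2 control hearts had the genotype alphaMHCMerCreMer+/-. Both groups thus carried the MerCreMer recombinase under the alpha myosin heavy chain promoter, which is active in cardiomyocytes, and the Tbx20_OE hearts alone carried the inducible transgene for the T-box factor Tbx20. Induction took place when the mice were 8 weeks old and the hearts were collected 4 weeks later, and the sources used here do not give the inducing agent. The comparison asks how gene expression in the adult heart differs after these 4 weeks. The recombinase promoter is that of cardiomyocytes while the RNA is that of all heart cells, so a value can mix cells with and without the induced gene.

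Gp130, the product of Il6st, is the shared signal-transducing receptor of interleukin-6, leukaemia inhibitory factor, oncostatin M and cardiotrophin-1. Ligand binding brings gp130 together with a partner chain such as Lifr or Osmr, the attached Jak kinases phosphorylate the receptor and Stat3, and Stat3 enters the nucleus to switch on target genes. Socs3 is such a target and blocks gp130 in return, while Cish and Socs2 are induced mainly by Stat5 and restrain growth hormone and related receptors. In the heart the route is known for supporting cardiomyocyte survival and hypertrophic growth.

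Stat factors recognise the letters TTCNNNGAA, which read the same on both strands. RefSeq promoter windows on GRCm38.p6, from 250 bases before to 50 bases after an annotated start, were matched for 9 of the 10 genes, in 11 windows. The letters TTCNNNGAA occurred in 2 of these 11 windows, those of Socs3 and Cish, and in 8.3% of all 32851 windows. The 200 bases of Socs3 and Pim1 directly before the start are shown because these are the members whose groups separated downward, and the Cish stretch because it holds the letters at 2 places. Capitals mark TTCNNNGAA in Socs3 and Cish, and the GC box GGGCGG, read on both strands, in Socs3 and Pim1.
Socs3, chr11:117969367-117969566, minus strand: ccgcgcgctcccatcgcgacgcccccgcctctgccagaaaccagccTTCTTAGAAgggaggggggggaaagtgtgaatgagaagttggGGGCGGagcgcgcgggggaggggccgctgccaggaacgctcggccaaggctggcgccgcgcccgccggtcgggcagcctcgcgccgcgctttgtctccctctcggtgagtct
Pim1, chr17:29490585-29490784, plus strand: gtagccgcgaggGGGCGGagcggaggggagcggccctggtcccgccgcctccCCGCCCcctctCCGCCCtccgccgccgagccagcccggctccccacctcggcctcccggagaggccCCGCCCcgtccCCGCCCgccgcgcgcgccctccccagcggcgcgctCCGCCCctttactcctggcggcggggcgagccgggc
Cish, chr9:107296654-107296683, plus strand: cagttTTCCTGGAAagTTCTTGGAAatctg
In Socs3 the Stat letters began 154 bases before the start, and in Cish the 2 copies began at bases 1 and 12 of the RefSeq transcript. The RefSeq starts of Cish and Pim1 used here lie before the starts of the loci given below, which come from the deposited values. The GC box stood in 9 of the 11 windows and in 35.7% of all windows. The AP-1 letters TGANTCA stood in the window of Osmr only among the members, and in 7.81% of all windows. The CRE letters TGACGTCA stood in the window of Jak1 and in 1.79% of all windows, CCAAT in 5 member windows and 37.4% of all, and TATAAA in no member window and 13.6% of all. Every motif was searched on both strands. These are matches of letters, and no binding was measured.

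Levels are in FPKM, the number of sequenced fragments divided by transcript length and by the library's total, so different genes can be set side by side. The files give no read numbers, so the depth behind each value is unknown. All fold changes compare log2(FPKM + 1), so that those of low genes come out too small, and were tested with limma over all 10513 genes with a mean of at least 1 FPKM, with Benjamini-Hochberg adjustment. Tbx20 itself was at 11.03 and 16.4 FPKM in Tbx20_OE and at 6.99 and 4.58 FPKM in control hearts, so its groups did not overlap (log2 1.11, limma adjusted p = 0.848). In bulk RNA fewer cells of a type and less RNA per cell cannot be told apart.

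The library of control replicate 2 was unlike the other 3, with the lowest value of 54.2% and the highest value of 25.5% of the tested genes. All 6 atrial markers were highest there, with a summed level of 3756 FPKM, against 252 and 141 FPKM in Tbx20_OE and 143 FPKM in the other control, and of these Sln and Mybphl were listed at 0 in at least 1 library. All 4 neutrophil markers, all 5 of epicardium and mesothelium and all 5 of red cells and platelets were highest there too. The summed neutrophil level was 80.5 and 19.8 FPKM in Tbx20_OE and 4.76 and 342 FPKM in control hearts. The 8 cardiomyocyte markers summed to 42762 and 36646 FPKM in Tbx20_OE and 39858 and 41838 FPKM in control hearts. The marker sums of 3 other lists did not overlap between the groups, and their part in the results below was not tested. The smooth muscle and pericyte markers summed to 149 and 135 FPKM in Tbx20_OE and 95.02 and 80.6 FPKM in control hearts. Of these 5 markers 3 were highest in Tbx20_OE replicate 1, 1 in Tbx20_OE replicate 2 and 1 in control replicate 2. The fibroblast markers summed to 489 and 403 FPKM in Tbx20_OE and 371 and 381 FPKM in control hearts. They did not share a direction, since of the 7 markers 3 were highest in Tbx20_OE replicate 1, 1 in Tbx20_OE replicate 2 and 3 in control replicate 2. The lymphocyte markers, near 0, summed to 0.859 and 0.912 FPKM in Tbx20_OE and 0.555 and 0.343 FPKM in control hearts. The sums of endothelial, macrophage and adipocyte markers overlapped between the groups.

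The 10 genes did not share a direction. The receptor and kinase genes Il6st, Jak1 and Jak2 and the factor gene Stat3 had higher means in Tbx20_OE hearts, Socs3 and Pim1 had lower values, and Lifr, Osmr, Socs2 and Cish had fold changes near 0. None of the 10 passed in limma after adjustment over all genes (adjusted p from 0.848 to 0.978), and 1, Pim1, had an unadjusted p under 0.05, on the lower side. Over all tested genes 0.019% passed, all of them higher in Tbx20_OE, while an unadjusted p under 0.05 was reached by 1.06% on the higher and 0.466% on the lower side. Both Tbx20_OE libraries lay below both controls for 2 members, Socs3 and Pim1, as for 4.77% of all tested genes. Both Tbx20_OE libraries lay above both controls for 2 members, Il6st and Jak2, as for 28.1% of all tested genes. The median log2 fold change was 0.10 over the 10 members and 0.15 over all tested genes. The smallest two-sided p that an exact permutation of 2 against 2 libraries allows is 0.333, so no single gene was tested that way. Scaling matters for these counts: after median centring 14.1% of all tested genes lay below and 10.3% above, with the authors' quantile-normalized values 12.7% and 12.1%, and with values corrected for the GC content of transcripts in each library, a step added after seeing the data, 12.5% and 12.0%. Socs3 and Pim1 lay below and no member lay above under each of these.

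**Figure D1:**
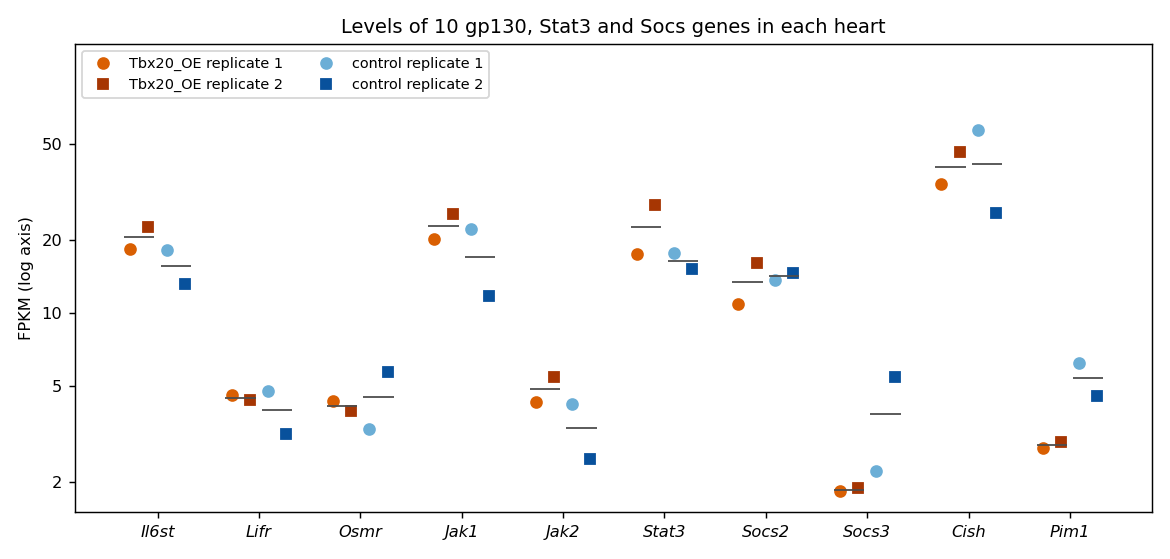
FPKM on a log axis of the 10 genes in each library, with Tbx20_OE libraries left of controls and a bar at each group's mean (n = 2). Both Tbx20_OE points of Pim1 lie at or under 2.93 FPKM and both control points at or over 4.54 FPKM, while for Socs3 only control replicate 2, at 5.41 FPKM, stands clear of the rest.

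By level, Cish came first, with a mean of 40.8 FPKM over the 4 libraries. It was above Jak1, the next gene by mean, in all 4, although its lowest value lay under the highest of Stat3. Jak1 at 20.02, Stat3 at 19.6 and Il6st at 18.1 FPKM came next, in an order that changed between libraries, followed by Socs2 at 13.8 FPKM. Il6st stood above Socs2 in 3 of the 4 libraries, so that these neighbours do not differ beyond their spread. The remaining 5 genes had means of 4.32 FPKM for Osmr, 4.20 for Lifr, 4.11 for Pim1, 4.10 for Jak2 and 2.84 for Socs3. Ranges overlapped between each pair of neighbours in that group, while the range of Socs2 lay wholly above that of Osmr.

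Among the receptors, Il6st, on chromosome 13 from 112464070 to 112506860 in mm10 coordinates, which hold for all loci below, had 18.3 and 22.8 FPKM in Tbx20_OE and 18.1 and 13.2 FPKM in control hearts. The groups did not overlap, but Tbx20_OE replicate 1 and control replicate 1 were nearly equal. The mean was 20.6 ± 3.15 FPKM in Tbx20_OE and 15.7 ± 3.49 FPKM in control (SD, n = 2), or log2 0.38 (SE 0.26, limma adjusted p = 0.848). Without control replicate 2 the log2 fold change of Il6st was 0.16. After median centring of the libraries the groups overlapped, as they did with the authors' quantile-normalized values.

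Lifr, the receptor chain that pairs with gp130 for leukaemia inhibitory factor and cardiotrophin-1, lies on chromosome 15 from 7129572 to 7197489. It was at 4.56 and 4.35 FPKM in Tbx20_OE and at 4.73 and 3.16 FPKM in control hearts. Control replicate 2 was low and the other 3 libraries were close together, so the Tbx20_OE values fell between the controls. The log2 fold change of Lifr was 0.16 (SE 0.23), and -0.07 without control replicate 2.

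Osmr, the chain that pairs with gp130 for oncostatin M, lies near Lifr on chromosome 15 from 6813577 to 6874313. It was at 4.34 and 3.93 FPKM in Tbx20_OE and at 3.32 and 5.69 FPKM in control hearts. The controls again lay outside the Tbx20_OE values on both sides, but here control replicate 2 was the high one. The log2 fold change of Osmr was -0.07 (SE 0.27), and 0.25 without control replicate 2. The ratio of Osmr to Lifr within a library was 0.951 and 0.905 in Tbx20_OE and 0.701 and 1.80 in control hearts, so the balance of the partner chains differed more between the controls than between the groups.

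The kinase genes had profiles over the libraries close to that of Il6st, as did Stat3 and Lifr. Jak1, encoding the main kinase of gp130 receptors, on chromosome 4 from 101151974 to 101265282, was at 20.2 and 25.7 FPKM in Tbx20_OE and at 22.4 and 11.8 FPKM in control hearts. Control replicate 1 lay between the Tbx20_OE libraries, and control replicate 2 was low. The log2 fold change of Jak1 was 0.46 (SE 0.35), and 0.03 without control replicate 2.

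Jak2, encoding the kinase of growth hormone and erythropoietin receptors and a helper at gp130, lies on chromosome 19 from 29251803 to 29313080. It was at 4.27 and 5.45 FPKM in Tbx20_OE and at 4.20 and 2.48 FPKM in control hearts, so the groups were separate by a narrow margin. The log2 fold change of Jak2 was 0.46 (SE 0.27), and 0.17 without control replicate 2. Its centred profile over the 4 libraries lay 0.066 from that of Il6st on the log2(FPKM + 1) scale (root mean square distance), closer than any other pair among the 10 genes, and 0.104 from that of Jak1. With only 4 libraries, one of them far from the rest, such closeness is a description.

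Stat3, on chromosome 11 from 100886810 to 100939511, was at 17.5 and 28.0 FPKM in Tbx20_OE and at 17.7 and 15.2 FPKM in control hearts. Tbx20_OE replicate 2 was high, and Tbx20_OE replicate 1 lay between the controls. The Stat3 log2 fold change of 0.41 (SE 0.29) became 0.09 without Tbx20_OE replicate 2. That library held the highest value of 5 of the 10 members, namely Il6st, Jak1, Jak2, Stat3 and Socs2, and of 38.0% of all tested genes.

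**Figure D2:**
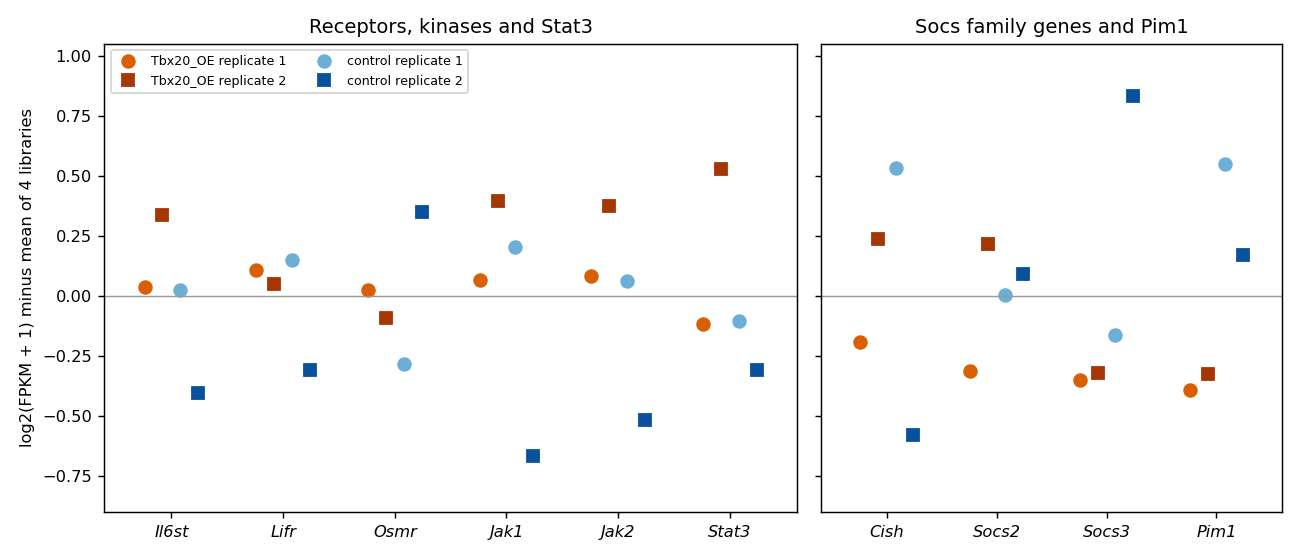
Each gene's log2(FPKM + 1) in a library minus its mean over the 4 libraries, with Tbx20_OE libraries left of controls. Control replicate 2 lies below 0 for Il6st, Lifr, Jak1, Jak2, Stat3 and Cish and at 0.83 for Socs3, and both Tbx20_OE libraries of Pim1 and Socs3 lie at or below -0.32.

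The Socs family genes behaved differently from each other. Cish, encoding the founding inhibitor of the family and a classical Stat5 target, on chromosome 9 from 107296689 to 107301961, was at 34.2 and 46.3 FPKM in Tbx20_OE. In control hearts it was at 57.0 and 25.8 FPKM, which brackets the Tbx20_OE values. The log2 fold change of Cish was 0.05, with a 95% interval from -1.01 to 1.10, the widest of the 10 genes. It was -0.51 without control replicate 2 and 0.60 without control replicate 1.

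Socs2, encoding a brake on growth hormone signalling, on chromosome 10 from 95411490 to 95416857, was at 10.8 and 16.1 FPKM in Tbx20_OE and at 13.7 and 14.7 FPKM in control hearts. Here the controls agreed closely and the Tbx20_OE libraries lay on either side of them. The log2 fold change of Socs2 was -0.09, with a 95% interval from -0.75 to 0.56.

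Socs3, encoding the feedback inhibitor that binds gp130, on chromosome 11 from 117966087 to 117969366, was at 1.83 and 1.88 FPKM in Tbx20_OE and at 2.22 and 5.41 FPKM in control hearts. The Tbx20_OE libraries were nearly equal and below both controls, and the controls differed from each other by more than control replicate 1 differed from the Tbx20_OE libraries. The mean was 1.86 ± 0.0396 FPKM in Tbx20_OE and 3.82 ± 2.25 FPKM in control (SD, n = 2). The Socs3 log2 fold change was -0.67 (SE 0.35, 95% interval from -1.55 to 0.20, limma adjusted p = 0.848). It was -0.17 without control replicate 2 (adjusted p = 1.0) and -1.17 without control replicate 1 (adjusted p = 0.0216), a fit that takes the spread of its single control, replicate 2, from the Tbx20_OE pair. In that fit 13.6% of all tested genes passed, 11.4% higher and 2.26% lower, and among the 10 members Socs3 was lower and Jak1 higher (Jak1 log2 0.90, adjusted p = 0.0434). The fits without control replicate 2, Tbx20_OE replicate 1 or Tbx20_OE replicate 2 called no member, and 0.209%, 0.105% and 0.0571% of all tested genes.

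Several measures moved with the high Socs3 value of control replicate 2. The atrial, neutrophil, mesothelial and platelet markers above were highest in that library. Socs3 also had the most GC-rich longest transcript of the 10 genes, at 58.7% in GENCODE M21, against 44.3% to 56.0% for the other 9. In control replicate 2 the deviation of a gene from its mean rose with its GC content over all tested genes (rho 0.45 by Spearman, a description, since genes share the library). Over the 10 members alone this rho was 0.28. Over all tested genes it was -0.15 and -0.38 in Tbx20_OE replicates 1 and 2, and -0.30 in control replicate 1. Over the members it was -0.75, -0.28 and 0.12 in these libraries, so the link with GC content was not confined to control replicate 2. With values corrected for GC content the Socs3 log2 fold change was -0.62. The part of the cell type markers in the Socs3 difference was not tested.

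Pim1 encodes a serine/threonine kinase that Stat3 and Stat5 induce and that supports cardiomyocyte survival. On chromosome 17 from 29491045 to 29495459, it was at 2.75 and 2.93 FPKM in Tbx20_OE and at 6.22 and 4.54 FPKM in control hearts. Both Tbx20_OE libraries were low and close together, and both controls were high. The gap between the groups was wider than the difference between the Tbx20_OE libraries and about as wide as that between the controls. The mean was 2.84 ± 0.124 FPKM in Tbx20_OE and 5.38 ± 1.19 FPKM in control (SD, n = 2). The Pim1 log2 fold change was -0.72 (SE 0.22, 95% interval from -1.27 to -0.17), or 60.8% of control on that scale. By limma p it ranked 55 of 10513 genes, and the adjusted p = 0.848 did not pass.

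The Pim1 difference was as large without the unlike library. Without control replicate 2 the log2 fold change of Pim1 was -0.91 (adjusted p = 0.372), and leaving out each of the other 3 libraries in turn it lay between -0.75 and -0.53 (adjusted p from 0.108 to 1.0). Its transcript was also GC-rich, at 56.0%, and with values corrected for GC content the log2 fold change was -0.73. The ratio of Pim1 to Stat3 within a library was 0.157 and 0.105 in Tbx20_OE and 0.351 and 0.298 in control hearts. Stat3 itself was highest in Tbx20_OE replicate 2, at 28.0 FPKM, which lowers the ratio there. The ratio of Pim1 to the related kinase gene Pim3 was 0.0822 and 0.0603 in Tbx20_OE and 0.113 and 0.0926 in control hearts. These pairs of genes were chosen after their values were seen.

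**Figure D3:**
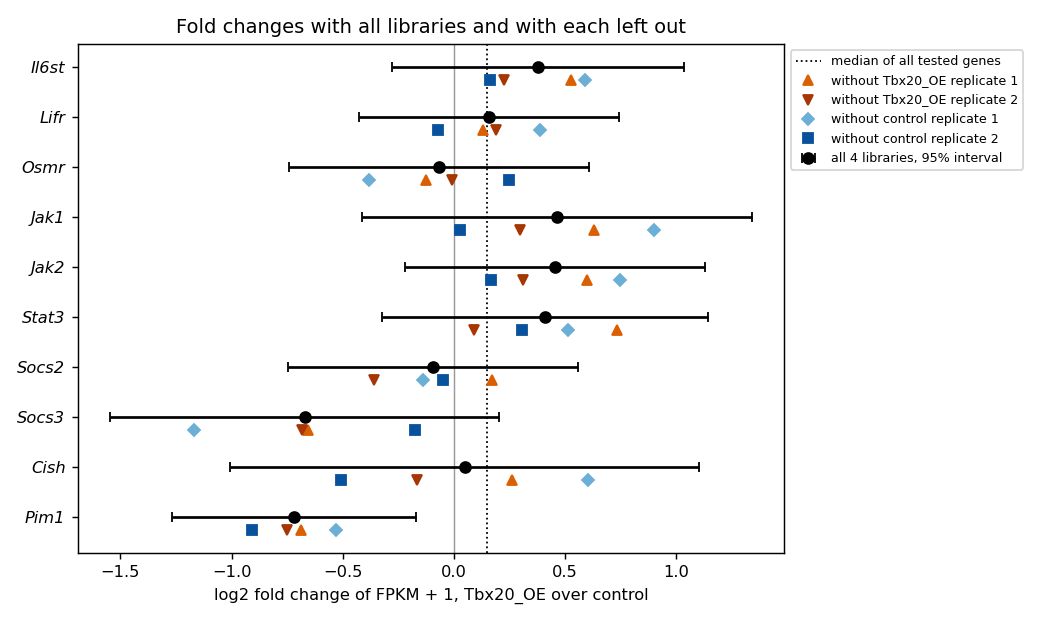
log2 fold change of FPKM + 1, Tbx20_OE over control, for each gene with its 95% limma interval (black) and with each library left out (coloured), and the median of all tested genes as a dotted line. Pim1 stays between -0.91 and -0.53 whichever library is left out, Socs3 spans -1.17 to -0.17, and Cish, Lifr, Osmr and Socs2 change sign.

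In the authors' deposited table, made with cuffdiff, Socs3 was at 2.47 FPKM in Tbx20_OE and 5.07 FPKM in control (q = 0.999 by cuffdiff). In the authors' deposited table Pim1 was at 3.80 FPKM in Tbx20_OE and 7.23 FPKM in control (q = 0.999 by cuffdiff), on a scale of its own that put all 10 members higher than the sheet does. These 2 members, and 0.887% of the genes the authors' deposited table tested, carry its flag for lower genes, and no member carries the flag for higher ones. The flag for higher genes went to 0.475% of the tested genes. Neither flag required a low q, since Socs3 and Pim1 carry the lower one at q = 0.999 and Tbx20 the higher one at q = 0.911 by cuffdiff. At a q under 0.05 the authors' deposited table held 0.241% of its tested genes and none of the 10. For the other 8 members, the authors' deposited table gave ratios of Tbx20_OE over control between 0.715 for Osmr and 1.28 for Stat3. Lifr and Cish were below 1 in the authors' deposited table, at 0.930 and 0.969, and slightly above control in the limma fit. Among the terms that the authors' deposited table of enrichment lists for lower genes, the JAK-STAT cascade held 3 genes, Socs3, Irs1 and Igf1 (q = 0.136). In that deposited table its narrower term, the JAK-STAT cascade in growth hormone signaling, held 2, Socs3 and Irs1 (q = 0.0497), and the response to cytokine held 12, with Socs3 the single member among them (q = 0.00469). These terms were computed from the flagged genes and are not independent of the flags.

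Other genes of the route, grouped by role, give the surroundings of these values. Relative to the other genes of a library these lists stand lower than their medians show: after median centring the receptors' median was -0.061 and that of the other Jak and Stat genes -0.16, while those of the inhibitors and the targets kept their sign, at 0.11 and -0.38. The lists were tested in the same limma fit. In that fit 7472 of all 10513 tested genes had positive and 3041 had negative fold changes, with a median of 0.15. Of 10 IL-6 family ligands only Ctf1, encoding cardiotrophin-1, passed the filter, at 5.36 and 6.02 FPKM in Tbx20_OE and 5.90 and 4.84 FPKM in control hearts (log2 0.08). The other 9 ligand genes, among them Il6, Lif, Osm and Il11, averaged under 1 FPKM and none exceeded 1.79 FPKM in any library. Il6 did not exceed 0.0538 FPKM in any library, and Lif, Osm and Il11 did not exceed 0.212 FPKM.

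Of 18 partner and other Jak-Stat coupled receptor genes 11 were tested, with 6 positive and 5 negative fold changes and a median log2 fold change of 0.10. None passed the limma test over all genes, and 0 had an unadjusted p under 0.05. Il13ra1, a chain of the interleukin-13 receptor, was at 7.98 and 15.2 FPKM in Tbx20_OE and at 10.1 and 3.33 FPKM in control hearts. Ifngr2, a chain of the interferon gamma receptor, was at 62.0 and 90.2 FPKM in Tbx20_OE and at 68.7 and 32.5 FPKM in control hearts. For both, control replicate 1 lay between the Tbx20_OE libraries and control replicate 2 was low, and without it both log2 fold changes were 0.12. Cntfr, the ciliary neurotrophic factor receptor gene, was at 1.92 and 1.31 FPKM in Tbx20_OE and at 2.08 and 3.46 FPKM in control hearts, with groups that did not overlap (log2 -0.51, adjusted p = 0.848, and -0.25 without control replicate 2). Il10rb, a chain of the interleukin-10 receptor and the most abundant of the list, was at 62.0 and 72.2 FPKM in Tbx20_OE and at 70.0 and 55.7 FPKM in control hearts (log2 0.10).

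Of 8 other Jak and Stat genes 7 were tested, 4 with positive and 3 with negative fold changes, a median log2 fold change of 0.00049 and 0 passing at either an adjusted or an unadjusted p under 0.05. Stat6, the interleukin-4 factor, was nearly constant, at 10.3 and 10.8 FPKM in Tbx20_OE and at 10.9 and 10.2 FPKM in control hearts. Stat2 and Jak3 were highest in control replicate 2, at 4.70 and 7.72 FPKM, and their log2 fold changes of -0.31 and -0.16 became 0.19 and 0.48 without it.

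Of 13 other inhibitor genes 11 were tested, and 10 of these had a positive fold change, as did 7472 of the 10513 tested genes, with a median of 0.27 beside 0.15 for all tested genes. None passed at an adjusted or unadjusted p under 0.05, and both Tbx20_OE libraries lay above both controls for 4 of them, beside 28.1% of all tested genes. Without control replicate 2 the median was 0.11 beside 0.079 for all tested genes, and with GC-corrected values it was 0.030 beside 0.0014. Ptpn11, encoding the phosphatase Shp2 that binds gp130, was at 34.0 and 40.1 FPKM in Tbx20_OE and at 34.4 and 18.8 FPKM in control hearts. Socs7 was at 2.52 and 3.25 FPKM in Tbx20_OE and at 2.15 and 1.65 FPKM in control hearts (log2 0.42). Pias1, encoding an inhibitor of activated Stats, was at 3.21 and 3.25 FPKM in Tbx20_OE and at 3.13 and 1.81 FPKM in control hearts (log2 0.31). Control replicate 2 was the low library in each of these, and without it the log2 fold change was 0.10 for Ptpn11, 0.30 for Socs7 and 0.034 for Pias1.

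All 22 listed target genes of Stat3 and Stat5 other than the members were tested, 7 with positive and 15 with negative fold changes and a median of -0.22. All tested genes had 7472 positive and 3041 negative fold changes and a median of 0.15. None of the 22 passed the limma test over all genes. Of them 1, Ccnd1, had an unadjusted p under 0.05, on the higher side, as did 1.06% of all tested genes. Of the 22, 13 were highest in control replicate 2, and without it the median was 0.11, with 16 positive and 6 negative, beside 0.079 for all tested genes, with 7179 positive and 3333 negative. Lcn2, an acute phase and neutrophil granule gene, was at 6.78 and 2.69 FPKM in Tbx20_OE and at 3.90 and 22.9 FPKM in control hearts. Gadd45g was at 6.28 and 16.2 FPKM in Tbx20_OE and at 16.0 and 21.8 FPKM in control hearts. Ccnd1, encoding cyclin D1, was at 12.1 and 11.1 FPKM in Tbx20_OE and at 8.25 and 4.52 FPKM in control hearts (log2 0.82, adjusted p = 0.848). The groups of Ccnd1 separated upward, with a log2 fold change of 0.44 without control replicate 2. Both Tbx20_OE libraries lay above both controls for 2 of the 22, Ccnd1 and Pim2, beside 28.1% of all tested genes. They lay below both controls for 2, Myc and Pim3, beside 4.77% of all tested genes. Mt1, a metallothionein gene induced by Stat3 and by metals, was the most abundant and followed control replicate 2, at 599 and 704 FPKM in Tbx20_OE and at 659 and 1348 FPKM in control hearts.

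**Figure D4:**
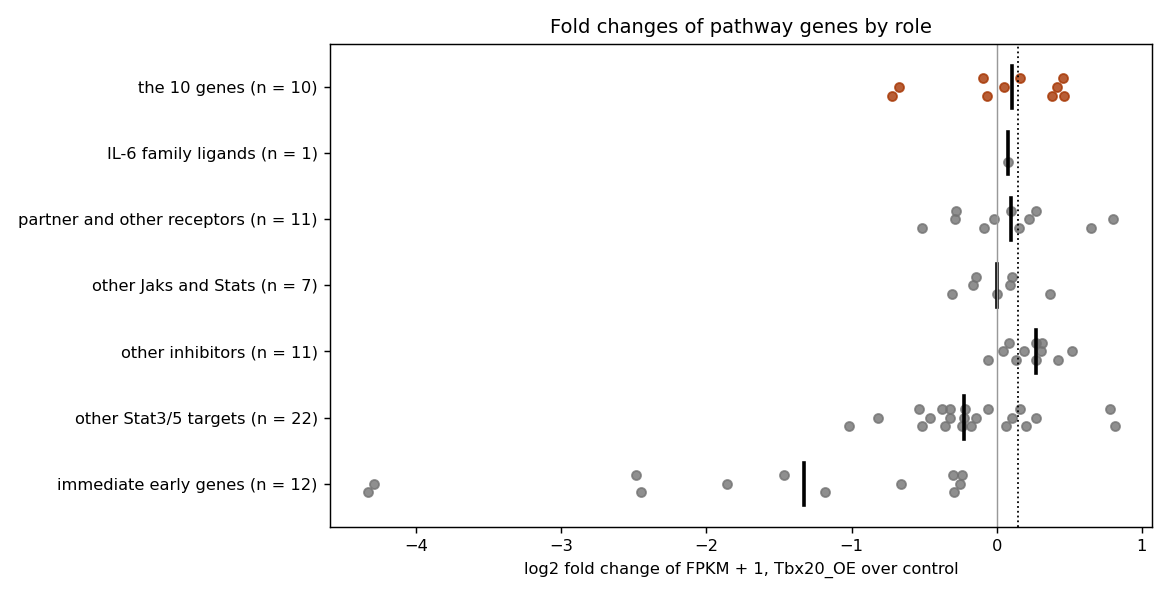
log2 fold change of FPKM + 1, Tbx20_OE over control, of each tested gene (points) in the 10 members and in 6 lists by role, with the list median as a bar and the median of all tested genes as a dotted line. The medians of the members and of the 5 pathway lists lie between -0.22 and 0.27, and that of the immediate early genes lies at -1.33.

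The immediate early genes, which like Socs3 and Pim1 are induced within minutes to hours of a stimulus, had 12 of 15 listed genes tested, all with negative fold changes and a median of -1.33. This list was chosen with its direction known, and none of its genes passed over all genes with the 4 libraries. An unadjusted limma p under 0.05 was reached by 6, all lower, beside 0.466% of all tested genes on the lower side. Both Tbx20_OE libraries lay below both controls for 8 of the 12, beside 4.77% of all tested genes. Fos, an AP-1 subunit, was at 0.808 and 0.412 FPKM in Tbx20_OE and at 53.2 and 18.1 FPKM in control hearts. Egr1, a zinc finger factor gene, was at 2.05 and 2.07 FPKM in Tbx20_OE and at 129 and 26.5 FPKM in control hearts, and Ier2 at 10.5 and 6.71 FPKM in Tbx20_OE and at 85.3 and 31.3 FPKM in control hearts. Ier3, the most abundant of the list, was at 51.1 and 23.8 FPKM in Tbx20_OE and at 54.9 and 34.1 FPKM in control hearts, with overlapping groups. In Fos, Egr1 and Ier2 control replicate 1 was the higher control, as in Pim1, whereas Socs3 was higher in control replicate 2. Whether Pim1 or Socs3 differs from this list was not tested.

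The profile of Socs3 over the 4 libraries was nearest to that of Aldh1a2, a retinoic acid synthesis gene of the epicardium, at a root mean square distance of 0.078 on the centred log2(FPKM + 1) scale among 10512 genes. Next came Gps2, Ccdc163, Mt1 and Cabp1, at distances up to 0.102. All 5 were highest in control replicate 2, and Aldh1a2, also one of the mesothelial markers above, was at 1.25 and 1.20 FPKM in Tbx20_OE and at 1.22 and 3.69 FPKM in control hearts. The mean profile of Cish, Socs2, Socs3 and Pim1 was nearest to those of D030056L22Rik, Chka, Rhob, Traf5 and Nfkbiz, at distances from 0.042 to 0.082. Nfkbiz, encoding an inducible regulator of NF-kappa-B, was at 0.838 and 1.00 FPKM in Tbx20_OE and at 1.72 and 1.64 FPKM in control hearts. That mean joins unlike profiles, since Socs3 and Cish lay 0.838 apart, and it includes the members whose groups separated downward, so the direction of its neighbours follows from how they were chosen.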

How the data were processed

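FPKM values per gene were deposited by the authors both library by library and as one table of the series, with a quantile-normalized copy. The submitters' processing notes name TopHat2 2.0.13, Cufflinks 2.1.1 and mm10, and the annotation used is not given in the sources used here. Per the file headers, the authors' comparison comes from cuffdiff 2.1.1 with default settings. Its p-values, q-values and 0 or 1 flags (a score in the deposited selection table) and the deposited enrichment terms served only as the authors' results. Low FPKM values showed no steps of whole reads: at most 0.514% of genes under 0.3 FPKM shared a ratio between 2 libraries, within 0.002 on the log2 scale.

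Libraries, each made from the RNA of a single heart according to the labels' protocols, were grouped by genotype. The 4 genes with a failed estimate and 1 not matched in the files per library were left out, and of repeated symbols the entry with the highest mean was kept. The test was limma 3.58.1 in R 4.3.3 on log2(FPKM + 1), moderated with a mean-variance trend and the group as the only term, for 10513 genes with a mean of at least 1 FPKM, at a Benjamini-Hochberg adjusted p of 0.05. It was tested on simulated data with noise drawn independently for each gene. Those data held no shift of a whole library such as that of control replicate 2, so they do not show its power here. File starts were raised by 1, because 11500 of 22344 loci then matched the GENCODE M21 annotation, against 1045 as given. Members, lists and comparisons were chosen with earlier results of these data known. Named are all members, and from each list the genes passing the test or else the 3 with the largest change, plus the most abundant one, and the 5 genes nearest in profile to Socs3 and to the mean of Cish, Socs2, Socs3 and Pim1. The values of 1 gene that this rule names are not reported here. Alternatives covered pseudocount, filter, scaling, source of values, variance model, replicate block and each library left out. GC-corrected values, in 10 bins of GC content per library, and a crossed block were added after seeing the data.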

Additional observations from a re-analysis of the deposited data

How the results depend on the processing

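Changing the filter, source of values, variance model or replicate block left a tested member's fold change unchanged, so only its adjusted p could move. Of 155 recomputed fold changes of the 10 genes, those included, 143 kept their direction and their side of the threshold. Those of Il6st, Jak1, Jak2, Stat3, Socs3 and Pim1 kept their sign under every alternative in which they were tested, but with GC-corrected values the fold changes were 0.16 for Il6st, 0.24 for Jak1, 0.21 for Jak2 and 0.31 for Stat3, against 0.38, 0.46, 0.46 and 0.41 as reported, and those of these 4 genes lay between 0.22 and 0.30 after median centring and between 0.23 and 0.32 with quantile-normalized FPKM. Lifr turned to -0.0012 after median centring and -0.090 with GC-corrected values. Cish turned to -0.11 after median centring, -0.10 with quantile-normalized FPKM and -0.053 with GC-corrected values. With a library left out Lifr ranged from -0.071 to 0.39, Osmr from -0.38 to 0.25, Socs2 from -0.36 to 0.17, Cish from -0.51 to 0.60, Jak1 from 0.028 to 0.90 and Socs3 from -1.17 to -0.17. The members' median was -0.057 after median centring, -0.038 with quantile-normalized FPKM and -0.072 with GC-corrected values, against 0.10 as reported and medians of all tested genes of -0.012, 0.011 and 0.0014, and it ranged from -0.011 to 0.45 with a library left out. At a mean of at least 5 FPKM it was 0.38, since 5 members, Socs3 and Pim1 among them, then fall under the filter, and 0 members lay below and 1 above both controls. The 2 members above both controls became 0 after median centring, with quantile-normalized FPKM and with GC-corrected values. With a library left out 2 to 6 members lay above and 2 to 4 below, where groups of 1 library separate more often by construction.

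The genes called over the whole table, 2 higher and 0 lower, became 1 higher with a pseudocount of 0.1, with no filter and with the files joined by locus, and ranged from 6 to 1195 higher and 0 to 238 lower with a library left out. The fit called 0 to 2 members then. The replicate block gave 3 genes lower and 0 members, and the crossed replicate block, numbers being crossed because same-numbered deviations correlated at -0.45 across genes, gave 12 higher and 18 lower and 0 members. The labels do not say that the numbers are pairs. The depth is unknown, and whether it limits the calls was not tested.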
